A study of Mus musculus with 4 samples.

Results

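The diacylglycerol kinases are the enzymes that turn the membrane lipid diacylglycerol into phosphatidic acid. The genes followed were Dgka, Dgkd, Dgke, Dgkg, Dgkh and Dgkz, 6 of the 32285 rows of the RNA table, together with the 134 of 148283 chromatin peaks that overlap them or lie within 10 kb of them. The 6 genes were picked by symbol from the family with their CD4 RNA ratio between the treatment groups already known, so that ratio is given here as a description and supports nothing. The remaining 4 genes of the family, Dgkb, Dgki, Dgkk and Dgkq, are given as a list further on.

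The T cells came from the bone marrow of C57BL/6 recipients, sorted on day 14 after a transplant. C3H.SW donors gave 5000000 marrow cells and, of each of the CD4 and CD8 subsets, 500000 T cells. In the PT-Cy group, days 3 and 4 brought an injection of cyclophosphamide, an alkylating agent toxic to proliferating cells, at 50 mg/kg; the alloBMT group had the same transplant without the drug. Each group was 1 pool of 4 mice, read once by multiome, which measures RNA and open chromatin (ATAC) in the same nuclei. With 1 library of each kind per group no difference between the groups has a replicate check and no test was run: every interval below is a 95% interval that covers counting error only. The labels do not separate transplanted T cells from T cells of the host or of the donor marrow.

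In T cells, diacylglycerol is made by phospholipase C gamma 1 below the antigen receptor, and it recruits the Ras activator RasGRP1 and protein kinase C theta to the membrane. Diacylglycerol kinases remove it and so dampen Ras-ERK and NF-κB signalling; the alpha and zeta forms are the best known in T cells, where they restrain activation and are linked to the unresponsive state called anergy. Alpha and gamma (Dgka, Dgkg) are type I kinases with calcium-binding EF hands. Delta and eta (Dgkd, Dgkh) are type II kinases with a pleckstrin homology domain, epsilon (Dgke) is the type III kinase and prefers diacylglycerol that carries arachidonic acid, and zeta (Dgkz) is a type IV kinase with ankyrin repeats.

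The start of Dgkg lies in the peak that set the 2 groups furthest apart among the CD4 peaks of these genes with at least 100 counts, and the starts of Dgka and Dgkz are shown beside it because these are the kinases best known in T cells. The windows run from 250 bases before to 50 bases after the first start listed in the RefSeq promoter table (GRCm38.p6), 5′ to 3′ on the minus strand that carries all 3 genes, with capitals for matches to the motifs named below. They are chr16:22657182-22657481 for Dgkg, chr10:128745035-128745334 for Dgka and chr2:91963514-91963813 for Dgkz, whose first listed start lies 12.88 kb inside the annotated gene.
Dgkg: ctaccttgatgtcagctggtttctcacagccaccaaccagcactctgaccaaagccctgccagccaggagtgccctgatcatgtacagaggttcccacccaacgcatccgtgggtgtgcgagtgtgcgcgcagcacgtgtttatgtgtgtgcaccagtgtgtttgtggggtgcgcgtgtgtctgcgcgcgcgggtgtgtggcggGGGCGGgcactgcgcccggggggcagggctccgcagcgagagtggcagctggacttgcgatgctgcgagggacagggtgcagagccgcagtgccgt
Dgka: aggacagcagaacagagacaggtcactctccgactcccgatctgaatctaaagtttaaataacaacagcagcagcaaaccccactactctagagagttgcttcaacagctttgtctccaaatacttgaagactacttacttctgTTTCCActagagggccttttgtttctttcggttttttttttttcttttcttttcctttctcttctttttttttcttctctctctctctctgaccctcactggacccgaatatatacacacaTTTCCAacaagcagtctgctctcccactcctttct
Dgkz: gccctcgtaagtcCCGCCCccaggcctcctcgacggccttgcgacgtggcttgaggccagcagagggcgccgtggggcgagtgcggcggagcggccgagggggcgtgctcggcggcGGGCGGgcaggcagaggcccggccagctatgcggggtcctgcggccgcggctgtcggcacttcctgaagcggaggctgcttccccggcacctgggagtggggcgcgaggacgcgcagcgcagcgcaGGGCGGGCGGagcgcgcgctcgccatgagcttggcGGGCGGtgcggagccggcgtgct

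The Dgkg window holds 22 CpG pairs and has a GC content of 65%, which places its CpG count at percentile 78.5 of the 32851 RefSeq windows of this length, whose median is 7 CpG pairs. The Dgka window is of another kind, with 4 CpG pairs and 41.3% GC, and the Dgkz window holds 43 CpG pairs and 77.7% GC. The 7 motifs searched, on both strands, were FOXO (GTAAACA), EGR (GCGTGGG), AP-1 (TGANTCA), NFAT (TGGAAA), ETS (CCGGAAG), T-box (AGGTGTGA) and SP/KLF (GGGCGG). The Dgkg window had 1 match, to SP/KLF, which 35.7% of all windows hold at least once. The Dgka window had 2 matches to NFAT, held by 21.4% of all windows, and the Dgkz window had 5 matches to SP/KLF, of which 2 overlap each other. The capitals are letter matches and not measured binding.

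The RNA table covers CD4 cells, 284 from PT-Cy with 1264107 UMIs (unique molecular identifiers, counted transcripts) and 926 from alloBMT with 3027967 UMIs. CD8 RNA was not analysed here, while ATAC counts cover both sets, including 512 CD8 cells from PT-Cy and 1865 from alloBMT. Median depth per CD4 cell was 3889 UMIs and 4090.5 ATAC counts in PT-Cy, against 2750 UMIs and 6874 ATAC counts in alloBMT; the 2 libraries shared 2 cell barcodes. All 8 T cell marker genes were detected in both libraries, and together they made 4879 of every 1000000 UMIs in PT-Cy and 6231 in alloBMT, a scale written CPM below. Cd8a was at 0 in both, although Cd8b1 stood at 131 CPM in PT-Cy and 100 CPM in alloBMT. The 5 dividing-cell markers summed to 2063 CPM in PT-Cy and 523 CPM in alloBMT, and all 5 were higher in PT-Cy. Markers of neutrophils and monocytes summed to 282 CPM in PT-Cy and 36.0 CPM in alloBMT, higher in PT-Cy for 8 of 9 genes, and erythroid markers to 865 CPM in PT-Cy and 209 CPM in alloBMT, higher in PT-Cy for 6 of 6.

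Dgkg separated the groups. It had 16 UMIs or 12.7 CPM in PT-Cy CD4 cells, against 269 UMIs or 88.8 CPM in alloBMT CD4 cells. Its log2 ratio of PT-Cy over alloBMT was -2.81 (-3.64 to -2.09), which is 7.02-fold lower in PT-Cy (4.24 to 12.5), the 3rd lowest ratio of the 6285 genes that reached 100 UMIs in the 2 libraries together. All 6 kinases passed that minimum. One of the 6 was at least 2-fold lower in PT-Cy, a limit that 2.88% of the 6285 genes passed, and 0 were at least 2-fold higher, as 4.93% of genes were; because the genes were picked with this contrast known, nothing is read from these shares.

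Dgka, the other type I kinase, went the opposite way, with 322 UMIs or 254.7 CPM in PT-Cy against 582 UMIs or 192 CPM in alloBMT, a log2 ratio of 0.41 (0.21 to 0.61). The type II kinases were close to even: Dgkd had 212 CPM in PT-Cy and 238 CPM in alloBMT (log2 -0.17, -0.37 to 0.04), and Dgkh had 92.6 CPM in PT-Cy and 101 CPM in alloBMT (log2 -0.12, -0.44 to 0.19). Both intervals include 0. Dgke had few UMIs, 41 in PT-Cy and 90 in alloBMT, with a log2 ratio of 0.13 (-0.44 to 0.67) whose sign turned to -0.0057 with edgeR's TMM scaling. Dgkz was somewhat lower, with 187 CPM in PT-Cy and 227 CPM in alloBMT, a log2 ratio of -0.27 (-0.49 to -0.058). Within the authors' cell clusters, the Dgkz ratio was -0.39 (-0.87 to 0.12) in cluster 2, from 188 PT-Cy and 44 alloBMT UMIs. It was 0.65 (-0.16 to 1.51) in cluster 4, from 36 and 21 UMIs, and 0.13 with equal weight of clusters 2 and 4. TMM scaling moved every CD4 RNA ratio by -0.13 and DESeq2's size factors by -0.14, which leaves the library-wide ratios of Dgkg, Dgka and Dgkz on the same side of 0.

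**Figure D1:**
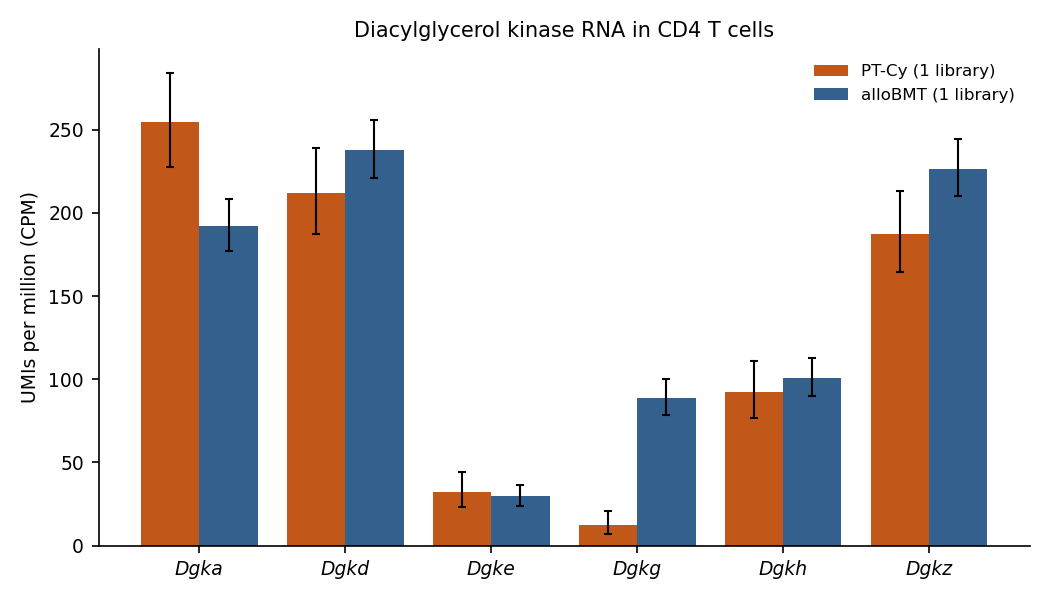
Level of each diacylglycerol kinase in CD4 cells (CPM of UMIs, PT-Cy left of alloBMT, bars with exact 95% counting intervals, 1 library each). Dgkg stood at 12.7 CPM in PT-Cy and 88.8 CPM in alloBMT. Dgka was the kinase with the higher bar in PT-Cy beyond its interval. Levels were not corrected for differences between genes in how well they are counted, so they are compared between groups.

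The whole family differed far less than Dgkg did. The 6 kinases together had 1001 UMIs or 792 CPM in PT-Cy and 2652 UMIs or 876 CPM in alloBMT, a log2 ratio of -0.15 (-0.25 to -0.040). Within that sum, Dgkg made up 1.60% of the UMIs in PT-Cy (0.916% to 2.58%) and 10.1% in alloBMT (9.02% to 11.4%). Dgka made up 32.2% in PT-Cy and 21.9% in alloBMT.

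Counted per cell, a Dgkg UMI was found in 10 of 284 PT-Cy cells, or 3.52% (1.70% to 6.38%), and in 182 of 926 alloBMT cells, or 19.7% (17.1% to 22.4%). Among the positive cells, 7 PT-Cy cells had 1 UMI and 3 had more, up to 5 in a cell, and in alloBMT 133 had 1 UMI and 49 had more, up to 6. Few cells of either group thus had more than 1 Dgkg UMI counted. With every cell reduced at random to 1981 UMIs, and 25 PT-Cy and 96 alloBMT cells below that depth dropped, the shares were 1.93% (0.63% to 4.45%) in PT-Cy and 12.9% (10.7% to 15.4%) in alloBMT. The order of the groups stayed, although PT-Cy cells were the deeper ones in RNA before thinning. Transcripts of other blood cells were also found among these cells. After thinning, S100a9, a neutrophil gene, was seen in 8.11% of PT-Cy cells and 2.17% of alloBMT cells. Hbb-bs, an erythroid globin gene, was seen in 45.9% of PT-Cy cells and 20.7% of alloBMT cells. The Dgkg share in PT-Cy was below both, and the share in alloBMT was above that of S100a9 and below that of Hbb-bs. These shares set no level for free Dgkg RNA. How much of the Dgkg counts of either group was free RNA was not tested. For Dgka the order depended on depth only in size, at 61.6% of PT-Cy cells and 41.4% of alloBMT cells before thinning, and 34.7% of PT-Cy cells and 30.5% of alloBMT cells after it, where the exact intervals overlap.

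The deposited clusters of CD4 cells divide the groups almost completely. Cluster 2 held 238 PT-Cy and 42 alloBMT cells, cluster 4 held 31 PT-Cy and 34 alloBMT cells, and clusters 0, 1 and 3 held 4, 0 and 11 PT-Cy cells beside 374, 320 and 156 alloBMT cells. A ratio between whole libraries is therefore also a ratio between clusters, and only clusters 2 and 4 allow a comparison of the groups within a cluster. The clusters were drawn by the authors from the same cells, so levels by cluster are given as a description.

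Dgkg was lowest in the PT-Cy sums and varied among the alloBMT clusters. In PT-Cy it had 15 UMIs or 14.3 CPM (8.02 to 23.6) in cluster 2 and 0 UMIs in cluster 4, where the upper bound is 26.3 CPM. In alloBMT it had 141 CPM (120 to 165) in cluster 1, 104 CPM in cluster 3, 45.8 CPM (34.2 to 60.01) in cluster 0, 42.8 CPM from 8 UMIs in cluster 2 and 23.3 CPM from 3 UMIs in cluster 4. Clusters 1 and 3 lie next to each other in that order and are not separated by counting error (log2 of cluster 1 over cluster 3, 0.44, -0.04 to 0.94), whereas cluster 1 was 3.08-fold above cluster 0 (2.24 to 4.30) and cluster 3 was above cluster 0 by 1.19 on the log2 scale (0.58 to 1.79). Within cluster 2, the log2 ratio of PT-Cy over alloBMT was -1.58 (-2.91 to -0.13), and it rests on 15 and 8 UMIs. That interval also holds the -2.81 of the whole libraries, so a smaller difference within the cluster is not shown. In cluster 4 the counts were 0 in PT-Cy and 3 in alloBMT, and no fold is given.

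Dgkh shared the contrast between alloBMT clusters but not the one between groups. It had 159 CPM in cluster 1 and 48.4 CPM in cluster 0 of alloBMT, a 3.28-fold difference (2.41 to 4.52). Yet cluster 3, at 86.1 CPM, lay below cluster 1 (log2 of cluster 1 over cluster 3, 0.88, 0.37 to 1.43), and PT-Cy cells of cluster 2, at 84.1 CPM, were close to alloBMT cells of the same cluster, at 74.8 CPM. Cluster 4 had 135 CPM in PT-Cy and 140 CPM in alloBMT. Within a cluster the Dgkh ratio of PT-Cy over alloBMT was thus near 0, with wide intervals (log2 0.17, -0.65 to 1.10 in cluster 2; -0.045, -1.05 to 0.97 in cluster 4).

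Dgka ran against both. In alloBMT it was 1.65-fold lower in cluster 1 than in cluster 0 (1.35 to 2.01), at 145 CPM in cluster 1 and 239 CPM in cluster 0. PT-Cy cells of cluster 2 had 263 CPM, beside 235 CPM in alloBMT cells of cluster 2 (log2 0.16, -0.30 to 0.65). The higher Dgka of the PT-Cy library was therefore not separable from 0 within that cluster. Between alloBMT clusters Dgkd and Dgkz differed little: cluster 1 over cluster 0 of alloBMT gave log2 ratios of 0.21 (-0.04 to 0.46) for Dgkd and 0.28 (0.019 to 0.54) for Dgkz. Over the 7 sums of a library and a cluster with at least 30 cells, the Pearson correlation between members ran from -0.81 for Dgka with Dgkh to 0.72 for Dgkd with Dgkg; the sums share libraries, so this is a description of 7 points.

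**Figure D2:**
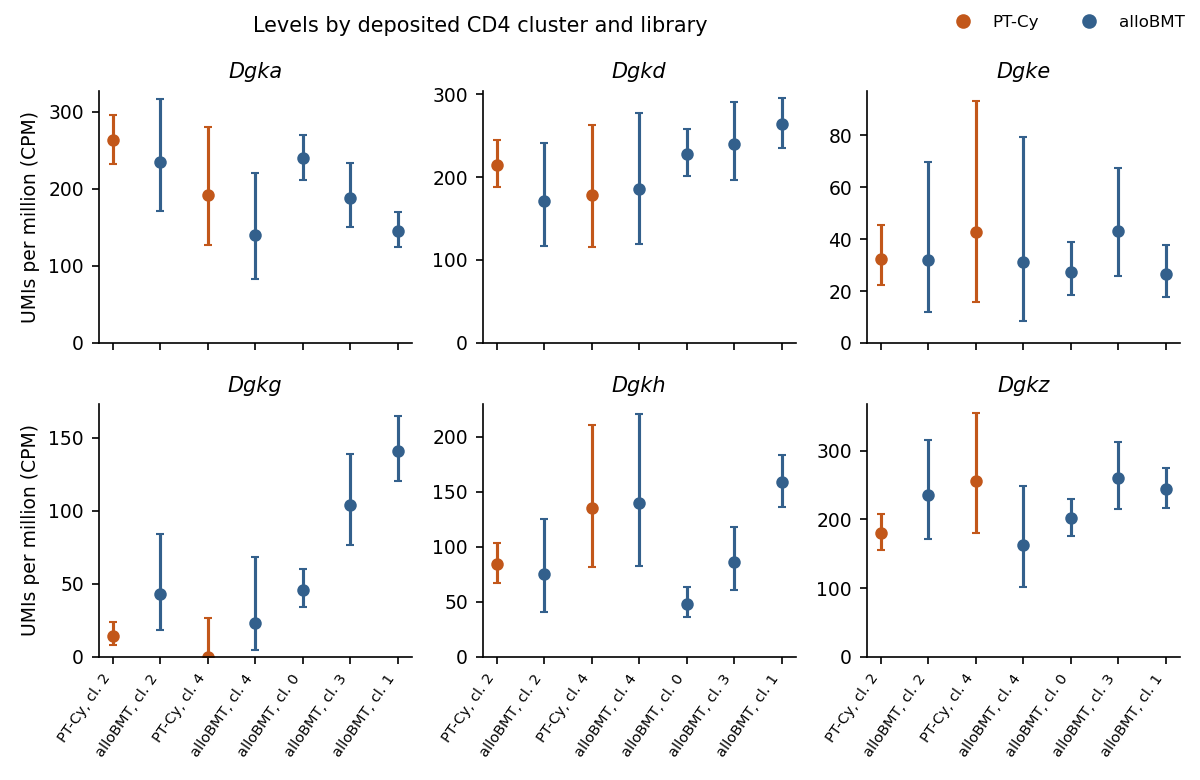
Level of each kinase by deposited CD4 cluster (CPM of UMIs, sums of at least 20 cells, PT-Cy before alloBMT, points with exact 95% counting intervals). Dgkg had 14.3 CPM in PT-Cy cluster 2 and 141 CPM in alloBMT cluster 1, while Dgka had 263 CPM in PT-Cy cluster 2 and 145 CPM in alloBMT cluster 1.

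By the same 7 sums, the genes most like Dgkg among 5724 compared were Igf2r, a receptor for mannose 6-phosphate (r = 0.991), the beta-1 adrenergic receptor gene Adrb1 (0.988), the granzyme B inhibitor Serpinb9 (0.987), the adiponectin receptor gene Adipor1 (0.987) and the cytotoxic granule gene Nkg7 (0.986). Nkg7 had 876 CPM in PT-Cy cluster 2 and 2433 CPM in alloBMT cluster 1, and Serpinb9 had 32.5 CPM in PT-Cy cluster 2 and 149 CPM in alloBMT cluster 1. The genes most like Dgka were Znrf1 and Rnf43, both coding for ubiquitin ligases (0.967 each), Ptges3 (0.958), Mob3a (0.955) and Ly6c2 (0.952).

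Chromatin at the kinase genes was first read over each whole locus, as counts in all peaks within 10 kb, scaled to 1000000 counts in peaks of that set and library and written ATAC CPM. These values come from the ATAC libraries of the same cells and pools as the RNA. The genes were chosen with earlier results of these data known, so the ATAC values are also given as a description. At Dgkg (chr16:22466568-22657302, 40 peaks), CD4 cells had 118 ATAC CPM in PT-Cy and 175 ATAC CPM in alloBMT, a log2 ratio of -0.58 (-0.81 to -0.35), at percentile 2.31 of 14384 gene loci. In CD8 cells the same locus had 179 ATAC CPM in PT-Cy and 168 ATAC CPM in alloBMT (log2 0.095, -0.038 to 0.23). The CD4 minus CD8 difference of the log2 ratios was -0.67 (-0.93 to -0.41) by counting error alone. None of the 6 loci passed a 2-fold difference in either set, a limit passed in CD4 by 0.389% of loci downwards and 0.723% upwards, and in CD8 by 0.381% of 15745 loci downwards and 0.267% upwards.

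Dgkz was the other locus with a CD4 ratio whose interval lay below 0. It had 274 ATAC CPM in PT-Cy CD4 cells and 322 ATAC CPM in alloBMT CD4 cells, a log2 ratio of -0.23 (-0.39 to -0.08), beside -0.016 (-0.12 to 0.086) in CD8 cells, and a CD4 minus CD8 difference of -0.22 (-0.40 to -0.035). Its window (20 peaks around chr2:91932822-91976443) also takes in the genes Mdk, Chrm4 and Creb3l1. The Dgka window (10 peaks around chr10:128720131-128745084) also takes in the genes Pym1 and Pmel. With a 2 kb window instead, Dgka had log2 ratios of 0.14 in CD4 and -0.0075 in CD8. Within 10 kb the Dgka log2 ratios were -0.10 (-0.31 to 0.099) in CD4 and -0.13 (-0.27 to 0.0064) in CD8. Both intervals include 0, unlike that of its RNA. Those of Dgkd (chr1:87853264-87945177, 22 peaks) were 0.028 in CD4 and 0.10 in CD8, those of Dgke (chr11:89035179-89060795, 7 peaks) -0.20 in CD4 and 0.047 in CD8, and those of Dgkh (chr14:78559349-78732729, 35 peaks) 0.20 in CD4 and 0.050 in CD8, and all 6 of these intervals include 0. Within CD4 cluster 2, Dgkh had 163 ATAC CPM in PT-Cy and 108 ATAC CPM in alloBMT (log2 0.60, 0.15 to 1.07). TMM scaling moves every CD4 ATAC ratio by -0.20 and every CD8 ratio by -0.088; it turns the sign of Dgkd in CD4 (-0.17) and of Dgke (-0.041) and Dgkh (-0.038) in CD8, and keeps that of Dgkg in both sets.

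**Figure D3:**
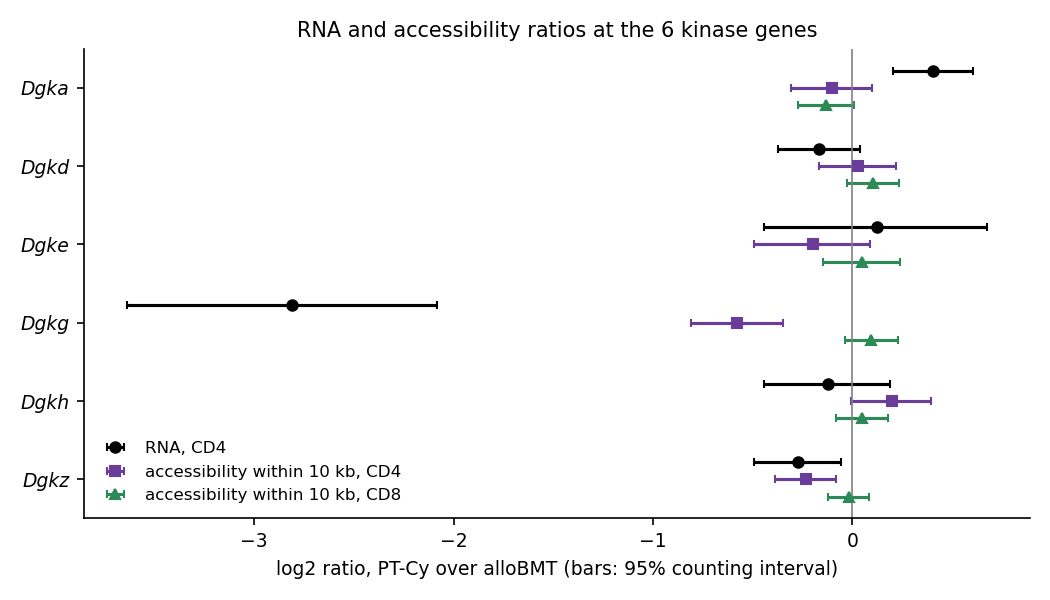
Log2 ratio of PT-Cy over alloBMT for each kinase in CD4 RNA and in ATAC counts over its locus in CD4 and CD8 cells (points with exact 95% counting intervals, line at 0). Dgkg lies at -2.81 in CD4 RNA, -0.58 in CD4 ATAC and 0.095 in CD8 ATAC; the other kinases lie between -0.27 and 0.41.

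The Dgkg start shown above lies in 1 peak (chr16:22656395-22657486). In CD4 cells this peak had 10 counts or 6.50 ATAC CPM in PT-Cy and 160 counts or 22.9 ATAC CPM in alloBMT, a log2 ratio of -1.82 (-2.91 to -0.90), or 3.53-fold lower in PT-Cy (1.87 to 7.50). In CD8 cells it had 32 counts or 10.3 ATAC CPM in PT-Cy and 301 counts or 18.1 ATAC CPM in alloBMT, a log2 ratio of -0.82 (-1.39 to -0.29), or 1.77-fold lower. The start was thus lower in PT-Cy in both sets, unlike the locus around it. The other 39 peaks of the locus gave log2 ratios of -0.46 (-0.70 to -0.22) in CD4 and 0.18 (0.037 to 0.31) in CD8.

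Peaks beside the start were sparse in PT-Cy CD4 cells. The peak just upstream (chr16:22657893-22658450) had 2 counts in PT-Cy and 60 in alloBMT (log2 -2.73, -5.81 to -0.81), and a peak 24.4 kb into the gene (chr16:22632298-22633458) had 2 counts in PT-Cy and 62 in alloBMT (log2 -2.77, -5.85 to -0.86). In CD8 cells the intervals of both include 0, with log2 ratios of -0.44 (-1.30 to 0.32) upstream and -0.53 (-1.28 to 0.15) inside the gene. A deeper peak 109 kb into the gene (chr16:22547627-22549158) had 13.6 ATAC CPM in PT-Cy CD4 cells and 20.6 ATAC CPM in alloBMT CD4 cells (log2 -0.60, -1.33 to 0.069).

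**Figure D4:**
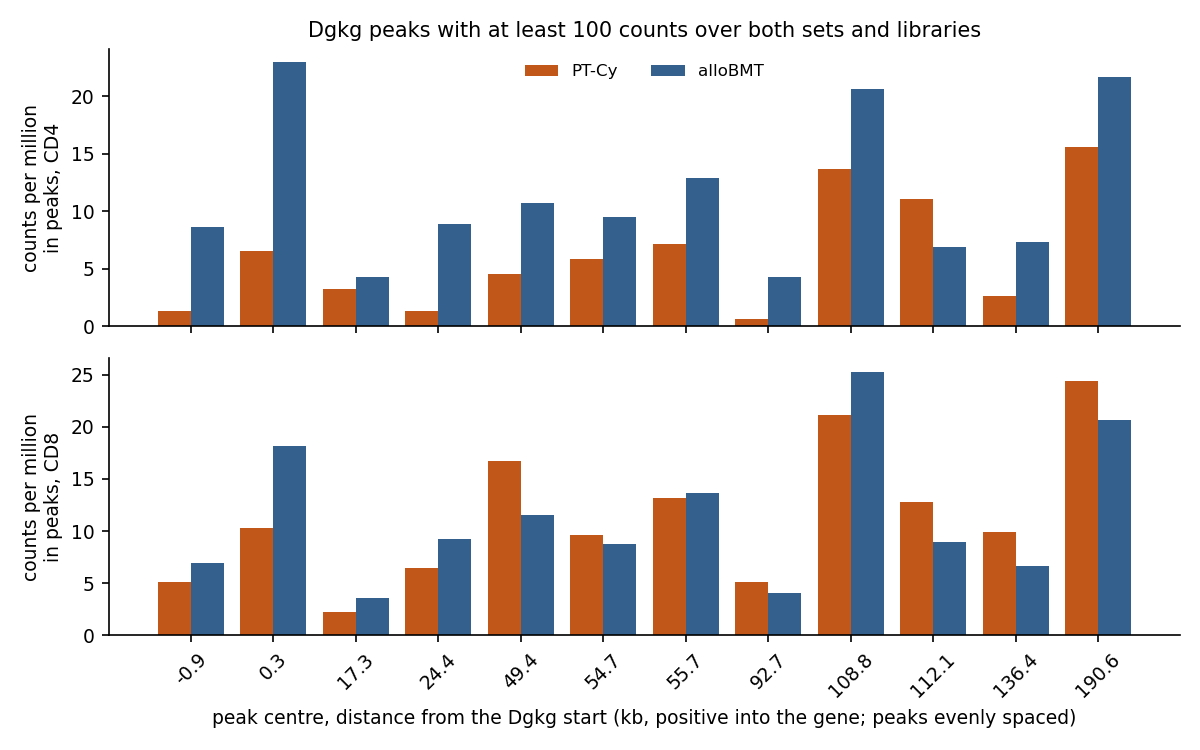
ATAC CPM in the 12 Dgkg peaks with at least 100 counts over both sets and libraries, in CD4 (top) and CD8 cells (bottom), PT-Cy left of alloBMT, ordered by distance from the start (kb). The start peak has 6.50 ATAC CPM in PT-Cy CD4 cells against 22.9 in alloBMT CD4 cells, and 10.3 in PT-Cy CD8 cells against 18.1 in alloBMT CD8 cells.

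By cluster, the start peak was highest where Dgkg RNA was, in cluster 1 of alloBMT, and the order below it differed. In alloBMT CD4 cells it had 34.9 ATAC CPM (28.7 to 42.1) in cluster 1, 25.8 (13.3 to 45.1) in cluster 2, 14.6 (4.75 to 34.1) in cluster 3 from 5 counts, and 11.4 (7.74 to 16.2) in cluster 0. Within cluster 2 it had 9 counts or 6.71 ATAC CPM in PT-Cy and 12 counts or 25.8 ATAC CPM in alloBMT, a log2 ratio of -1.94 (-3.37 to -0.57). Cluster 4 had 1 count in PT-Cy and 3 in alloBMT. The log2 ratio within cluster 2 lay near the -1.82 of all CD4 cells. It rests on 9 and 12 counts, and its wide interval also holds smaller differences.

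The CD8 clusters showed the same kind of range. In alloBMT, cluster 3 had 32.6 ATAC CPM (26.5 to 39.7), above cluster 4 at 18.7 (13.6 to 25.2), and clusters 0 and 7 had 14.1 and 14.4. Clusters 3, 4, 0 and 7 held 1, 7, 0 and 1 PT-Cy cells. Clusters 2, 5 and 6 held both groups and had 7.70, 12.2 and 6.77 ATAC CPM in PT-Cy and 13.4, 22.6 and 10.6 in alloBMT; each was lower in PT-Cy and each interval of the ratio includes 0. Cluster 1 went the other way, at 27.0 ATAC CPM in PT-Cy and 15.9 in alloBMT, from 2 PT-Cy counts. Over the whole Dgkg locus, CD8 cluster 5 was higher in PT-Cy, at 204 ATAC CPM in PT-Cy and 113 in alloBMT (log2 0.85, 0.28 to 1.46), while its start peak was not. Cluster 6 leaned the other way, at 114 in PT-Cy and 145 in alloBMT (log2 -0.35, -0.78 to 0.070), and the intervals of clusters 1 and 2 include 0.

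**Figure D5:**
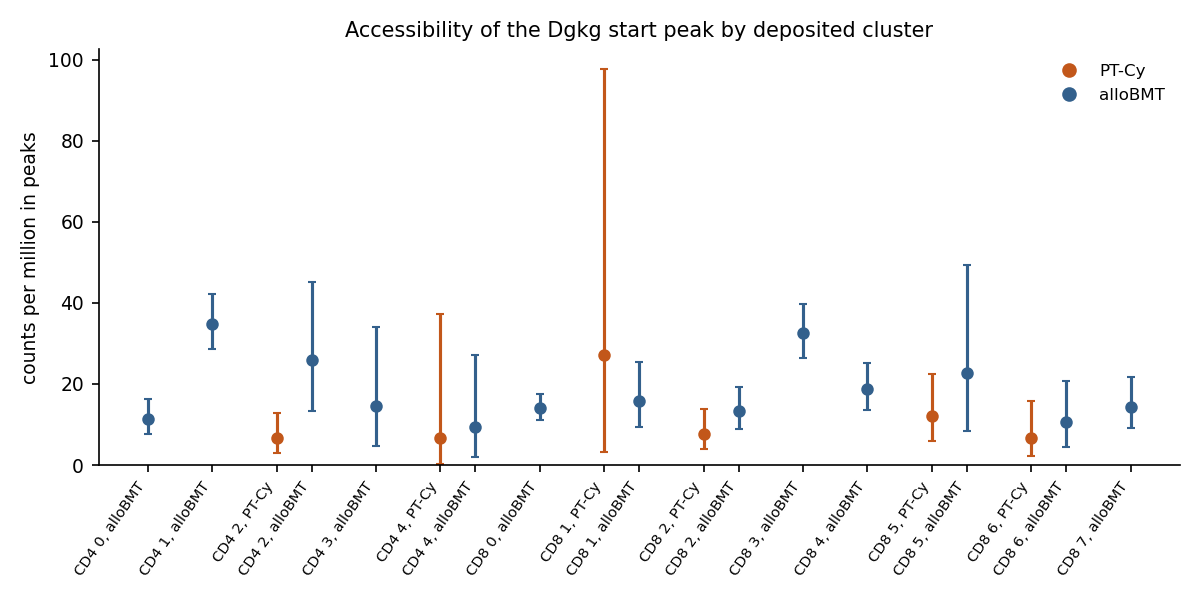
ATAC CPM in the Dgkg start peak by deposited cluster of CD4 and CD8 cells (sums of at least 20 cells, PT-Cy left of alloBMT, exact 95% counting intervals). The highest alloBMT sums are CD4 cluster 1 at 34.9 and CD8 cluster 3 at 32.6, and the PT-Cy sum of CD4 cluster 2 is at 6.71 beside 25.8 in alloBMT.

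The peaks at the first starts of the other 5 kinases had intervals that include 0 in both sets. The Dgkz peak at its first listed start, inside the gene, had 57.8 ATAC CPM in PT-Cy CD4 cells and 59.4 in alloBMT CD4 cells (log2 -0.038, -0.38 to 0.30). The peak at the annotated 5′ end of Dgkz (chr2:91975490-91976481) had 11.7 in PT-Cy CD4 cells and 12.9 in alloBMT CD4 cells (log2 -0.14, -0.96 to 0.60). The Dgkh start peak had 42.2 in PT-Cy CD4 cells and 33.6 in alloBMT CD4 cells (log2 0.33, -0.087 to 0.73). Of the 28 member peaks with at least 100 CD4 counts, 2 were at least 2-fold lower in PT-Cy and 0 were higher, where 3.82% of all such CD4 peaks were lower and 0.751% higher. The second of these, after the Dgkg start, lies in the Dgkz window near Chrm4 and Mdk (chr2:91923754-91924334), with 11 counts in PT-Cy and 126 in alloBMT (log2 -1.34, -2.38 to -0.45). In CD8, 1 of 54 member peaks was at least 2-fold lower and 0 were higher, against 3.27% lower and 1.01% higher of all CD8 peaks. It lies inside Dgkh (chr14:78631203-78632383), with 4.17 ATAC CPM in PT-Cy CD8 cells and 9.33 in alloBMT CD8 cells (log2 -1.16, -2.10 to -0.35), and had 2 counts in PT-Cy CD4 cells and 50 in alloBMT CD4 cells.

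With all T cells joined, 2 of 67 member peaks were at least 2-fold lower in PT-Cy and 2 were higher, beside 3.69% lower and 1.59% higher of all peaks. The lower ones were the Dgkg start (log2 -1.12) and the Dgkh peak (log2 -1.43). A higher one lies inside Dgkd (chr1:87866456-87867025), with 7.73 ATAC CPM in PT-Cy and 2.71 in alloBMT (log2 1.51, 0.88 to 2.12), and the other in the Dgkz window (chr2:91985980-91986359), with 6.87 ATAC CPM in PT-Cy and 3.31 in alloBMT (log2 1.05, 0.41 to 1.67). Upstream of Dgka, a peak (chr10:128749944-128750706) had 15.7 ATAC CPM in PT-Cy and 25.7 in alloBMT (log2 -0.72), and a nearer one (chr10:128746113-128746591) had 27.7 ATAC CPM in PT-Cy and 21.3 in alloBMT (log2 0.38). The deepest peak upstream of Dgka (chr10:128747579-128748636) lies between them, with 44.2 ATAC CPM in PT-Cy and 44.9 ATAC CPM in alloBMT (log2 -0.020, -0.24 to 0.20). The gene Pym1 also lies within 10 kb of Dgka, and which gene these peaks belong to was not tested.

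The rest of diacylglycerol signalling was read in CD4 RNA over 7 lists of 85 genes, of which 67 had at least 20 UMIs. Of these, 11 were at least 1.5-fold higher in PT-Cy, and 13 were at least 1.5-fold lower, with a median log2 ratio of 0.090. Over all 10122 genes measured, 18.7% were higher and 11.9% lower by that limit, with a median of 0.059. Among the 4 other kinases of the family, Dgki had 12 UMIs in PT-Cy and 61 in alloBMT (log2 -1.09, -2.11 to -0.18), Dgkq had 15 UMIs in PT-Cy and 19 in alloBMT (log2 0.92, -0.16 to 1.97), and Dgkb and Dgkk were at 0 in PT-Cy with 3 and 4 UMIs in alloBMT. Dgki, a type IV kinase like Dgkz, was thus more than 2-fold lower in PT-Cy with an interval below 0. Its pattern over the alloBMT clusters was not that of Dgkg: it had 37.0 CPM in cluster 0 and 9.70 CPM in cluster 1.

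Among the 8 measured makers of diacylglycerol and genes of the receptor-proximal complex, 2 stood at least 1.5-fold above alloBMT and 1 below it by as much. By that limit 18.7% of all genes measured were higher and 11.9% lower. Plcb4, a phospholipase C of the beta class, had 178 CPM in PT-Cy and 47.9 CPM in alloBMT (log2 1.89, 1.59 to 2.21), Zap70, the receptor-proximal kinase, had 134 CPM in PT-Cy and 202 CPM in alloBMT (log2 -0.59, -0.84 to -0.34), and Plcg1, the phospholipase of the T cell receptor, had 93.3 CPM in PT-Cy and 111 CPM in alloBMT (log2 -0.25, -0.56 to 0.062). Of the 12 measured readers of diacylglycerol, 1 was higher and 3 lower. Chn2, the Rac regulator beta-chimaerin, had 282 CPM in PT-Cy and 947.5 CPM in alloBMT (log2 -1.75, -1.91 to -1.59), and Prkch, protein kinase C eta, had 865 CPM in PT-Cy and 1965 CPM in alloBMT (log2 -1.18, -1.28 to -1.09). Prkd3, protein kinase D3, was the higher one, at 76.7 CPM in PT-Cy and 36.0 CPM in alloBMT. Rasgrp1, the Ras activator that diacylglycerol recruits, had 346 CPM in PT-Cy and 258 CPM in alloBMT (log2 0.43, 0.25 to 0.60), and Prkcq, protein kinase C theta, had a log2 ratio of -0.038 (-0.15 to 0.073). The readers did not move as one group.

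Below them, the Ras-ERK and NF-κB steps had 14 measured genes, of which 1 was higher in PT-Cy by 1.5-fold or more and 0 were lower; their median log2 ratio was 0.012. Of the 10 measured early growth response and MAPK feedback genes, 0 were higher and 5 lower, with a median of -0.58. The counts of these short lists stand beside 18.7% higher and 11.9% lower of all genes measured. Egr1, an immediate early transcription factor, had 19 UMIs in PT-Cy and 144 in alloBMT (log2 -1.66, -2.44 to -0.97), and Dusp2, a phosphatase of ERK, had 71.2 CPM in PT-Cy and 137 CPM in alloBMT (log2 -0.94, -1.29 to -0.61). Egr2, which drives Dgka in anergic mouse T cells, had 5 UMIs in PT-Cy and 11 in alloBMT. Egr3, a related factor, had 7 UMIs in PT-Cy and 3 in alloBMT, and both were under the minimum of 20 UMIs. Of 15 measured genes of phosphatidic acid and diacylglycerol metabolism, 5 were higher and 2 lower, with Pip5k1b, a phosphatidylinositol phosphate kinase, at 83 UMIs in PT-Cy and 24 in alloBMT (log2 3.05, 2.38 to 3.77). Of 6 regulators and partners, 1 was higher and 1 lower: Foxo1, a transcription factor reported to drive Dgka, had 326 CPM in PT-Cy and 188 CPM in alloBMT (log2 0.80, 0.61 to 0.98), and Sh2d1a, the adaptor SAP, which inhibits the alpha kinase, had 156 CPM in PT-Cy and 309 CPM in alloBMT (log2 -0.99, -1.22 to -0.77).

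The dividing-cell markers differed between the groups along with Dgkg and Dgka. Cells without a UMI of any of the 5 dividing markers numbered 18 in PT-Cy and 392 in alloBMT. In them Dgkg had 0 UMIs in PT-Cy and 99 in alloBMT. With the 0 set to the floor of 3 counts, the log2 ratio came to -0.90, a value set by the floor and not a confidence limit. Dgka had 26 UMIs in PT-Cy and 207 in alloBMT in these cells, a log2 ratio of 1.15 beside the 0.41 of all CD4 cells. Without cells that had a Cd8b1 UMI, 193 PT-Cy and 731 alloBMT cells gave a Dgkg log2 ratio of -2.92. The part of neutrophil, erythroid and dividing-cell transcripts in the other ratios was not tested. Usp40 overlaps the end of Dgkd and Pmel overlaps Dgka in the annotation, and the sources used here do not say how the counting split such reads. The measured non-coding genes inside Dgkg, 9230117E06Rik and Gm15651, had 0 UMIs in PT-Cy and 2 or 0 in alloBMT.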

How the data were processed

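The authors deposited whole-number counts of RNA UMIs per gene and of ATAC per peak and cell, and per-cell cluster numbers, per the file headers and the values. The tools named are Cell Ranger ARC 1.0.1 and MACS2, per the submitters' processing notes. The sources used here do not give the filter on cells or any step on doublets. The build in the notes is GRCh38, a human build; 51.5% of 32851 mouse RefSeq start windows (GRCm38.p6) lay in a peak, and 9.10% when shifted by 20000 bases. The per-cell table has 58 columns, of which 56 were not used. Every cell of the CD4 set has a Cd4 UMI and none has a Cd8a UMI.

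Sums over cells, per library and per cluster, were divided by the total (CPM and ATAC CPM, per 1000000). Log2 ratios are PT-Cy over alloBMT with exact conditional binomial (Clopper-Pearson) 95% intervals; levels have exact Poisson and shares exact binomial intervals; CD4 minus CD8 differences use a normal approximation to the counting error. Intervals cover counting error only. A 0 was replaced by 3 counts as a floor. Genes needed 100 UMIs for 2-fold and 20 UMIs for 1.5-fold counts, peaks and loci 100 counts. Likeness was Pearson's r of log2(CPM + 10). Named genes were the 6 members, the 4 other kinases, the 5 genes most like Dgkg and Dgka, from each other list up to 4 genes of at least 100 UMIs ranked by size of ratio, and Rasgrp1, Prkcq, Plcg1, Egr2, Egr3 and Foxo1. Named peaks were, per member, up to 3 with the interval farthest from 0 and the one with the most counts; peaks at first starts and past 2-fold were added after their values were seen. The members and lists were chosen with earlier results of these data known. No doublet caller was run; an alternative drops the top 5% of cells by UMIs from each library. Alternatives were edgeR 4.0.16 TMM and DESeq2 1.42.0 size factors (R 4.3.3), other windows, count minimums, cell subsets and thinning. Python 3.11.15, scipy 1.17.1 and pandas 2.3.3 were used. On simulated CD4 RNA counts of 6150 genes, 95.8% of the intervals of unchanged genes and 93.9% of those of 196 changed genes held the true value. The simulated counts followed the Poisson model that the intervals assume. The result therefore checks the calculation and not the coverage in real cells or between mice.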

Additional observations from a re-analysis of the deposited data

Results flagged for a closer look

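Loci whose ATAC ratio pointed opposite ways in CD4 and CD8 cells were picked out. At Dgkg the log2 ratio of PT-Cy over alloBMT was -0.58 (-0.81 to -0.35) in CD4 and 0.095 (-0.038 to 0.23) in CD8. At Dgke it was -0.20 (-0.50 to 0.090) in CD4 and 0.047 (-0.15 to 0.24) in CD8, and both intervals include 0. At Dgke the opposite signs depend on scaling: with TMM its CD8 value was -0.041, the same sign as in CD4. At Dgkg the signs stayed opposite with TMM, at -0.77 in CD4 and 0.0074 in CD8. With 1 library per group the difference between the sets was not tested over samples.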

How the results depend on the processing

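Of 53 alternatives for the RNA ratios of the 6 kinases, 44 stayed within the counting interval of the value over all CD4 cells. Within cluster 2 the log2 ratio was 0.16 for Dgka, 0.33 for Dgkd and -1.58 for Dgkg, and within cluster 4 it was 0.65 for Dgkz. Equal weight of clusters 2 and 4 gave 0.14 for Dgkd and 0.13 for Dgkz. Without cells that had a dividing marker it was 1.15 for Dgka and -0.60 for Dgkz, from 18 PT-Cy cells. The value for Dgkg, -0.90, was set by the floor of 3 counts and does not show a smaller difference. Dgkg within cluster 4 gave no value. At the CD4 loci, a 2 kb window gave 0.14 for Dgka, TMM scaling gave -0.17 for Dgkd and -0.43 for Dgkz, and DESeq2 scaling gave -0.41 for Dgkz, while all 30 alternatives at CD8 loci stayed within the interval. The Dgkg start peak gave -0.48 within CD4 cluster 4 and 0.77 within CD8 cluster 1, on 1 and 2 PT-Cy counts.

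At a minimum of 50 counts, 9 of 47 CD4 peaks, 6 of 75 CD8 peaks and 4 of 91 peaks over all T cells were at least 2-fold lower, beside 6.39%, 6.01% and 5.59% of all peaks at that minimum, and 2 CD8 peaks and 5 over all T cells were higher, beside 2.42% and 3.28%. At a minimum of 200 counts, 0 of 11 CD4 and 0 of 31 CD8 peaks were lower and 0 of 42 over all T cells were higher, beside 1.5%, 1.48% and 0.461% of all peaks; counting each cell once per peak left 0 of 64 higher. The listed genes at least 1.5-fold higher numbered 5 of 55 at a minimum of 100 UMIs, beside 12.5% of all genes, and 19 of 78 with no minimum, beside 28.5%. Those lower numbered 9 of 55, beside 9.5%, and 13 of 78, beside 12.8%. No paired analysis was possible because each group has 1 library of each kind. Few Dgkg counts in PT-Cy, 16 UMIs and 10 start-peak counts, limit the precision of its ratios.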

Other observations

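The diacylglycerol readers Chn2 and Prkch ranked the alloBMT clusters as Dgkg did at the top. Chn2 had 1463 CPM in cluster 1, 956 CPM in cluster 3 and 505 CPM in cluster 0 of alloBMT, and within cluster 2 it had 289 CPM in PT-Cy and 812 CPM in alloBMT. Prkch had 2468 CPM in cluster 1, 2036 CPM in cluster 3 and 1541 CPM in cluster 0 of alloBMT, and within cluster 2 it had 856 CPM in PT-Cy and 1593 CPM in alloBMT. Plcb4 had another order: cluster 4 had 363 CPM in PT-Cy and 217 CPM in alloBMT, cluster 2 had 158 CPM in PT-Cy and 37.4 CPM in alloBMT, and cluster 1 of alloBMT had 8.82 CPM. Each value is 1 sum of cells with no replicate.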
